A study of Danio rerio with 15 samples.

Results

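This account describes 5 nuclear genes whose proteins work at the mitochondrial inner membrane or in assembling mitochondrial complexes, PRELID3B, TAMM41, MTG1, tmem223 and NDUFAB1, across a zebrafish venous clot. Gene IDs were matched to these 5 symbols without regard to case or a final copy letter, which gave 6 genes of the 28103 in the expression matrix. The sixth, ndufab1b, is the second zebrafish copy of NDUFAB1. All 6 were among the 13051 genes kept for testing, which reached an FPKM of 1 in 3 or more libraries. The 5 named genes were chosen by their levels at 1 and 3 h after injury relative to control and to the next time, PRELID3B as a gene that is high and the others as genes that are low, so their differences at those times are given as descriptions with no test. The copy ndufab1b was not picked for its level and is tested throughout.

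RNA was measured in larvae that carry Tg (flk1:eGFP; gata1:dsRed), in which the flk1 promoter marks endothelial cells green and the gata1 promoter marks erythroid cells red. The control group was uninjured venous tissue, and the other 4 groups, of the same genotype, were venous clot tissue sampled 1, 3, 6 or 12 h after the vessel wall was hit by a laser. Tissue was cut from frozen sections by laser-capture microdissection, and each group had 3 libraries, called A, B and C. No uninjured tissue of the later times was analysed here, so time after injury and age of the larvae cannot be told apart. The labels tie no library to an animal, so p-values measure only the spread between libraries, which may be technical.

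In background, PRELID3B is a small carrier that, in human cells, works with TRIAP1 to move phosphatidylserine between the mitochondrial membranes. TAMM41 makes CDP-diacylglycerol, the precursor from which the inner membrane lipid cardiolipin is built. MTG1 is a GTPase that helps mature the large subunit of the mitochondrial ribosome, TMEM223 is a human inner membrane protein linked to that ribosome and to early assembly of respiratory complex IV, and NDUFAB1 is the mitochondrial acyl carrier protein, a subunit of complex I that also serves lipoate synthesis and iron-sulfur cluster assembly. Muscle and developing red cells rely heavily on such steps, for respiration and for haem.

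The matrix holds FPKM, the number of sequenced fragments scaled by transcript length and by library size, so levels of different genes can be set side by side. Between 12486844 and 15651535 reads per library could be recovered from it. The 1 h libraries had between 11443 and 12788 gene IDs above 0 and the control libraries between 13988 and 14288. Markers of the labelled vein were low. The 8 of 10 venous endothelial markers that could be matched summed to between 3.27 and 22.1 FPKM in every library, with none at 0 throughout a group. The 4 of 7 matched skeletal muscle markers summed to between 131364 and 169521 FPKM in control, 74570 and 122400 at 1 h, 83868 and 131137 at 3 h, 129615 and 159989 at 6 h, and 81136 and 139067 at 12 h. No matched muscle marker was at 0, and every 1 h and 3 h library lay below every control library in muscle markers, a difference whose part in the results below was not tested. Markers of other cell types also differed between groups. The 4 of 5 matched thrombocyte markers summed to at most 5.75 FPKM in control and to between 8.33 and 25.2 at 1 h, with mpl at 0. The 5 of 6 matched epidermal markers summed to between 889 and 1792 FPKM in control, 211 and 488 at 6 h, and 1986 and 2270 at 12 h. At 1 h they summed to 1103, 3333 and 184 FPKM in libraries A, B and C. The 4 of 6 matched neutrophil and macrophage markers summed to between 6.88 and 23.1 FPKM in control and 3.96 and 9.01 at 1 h. They summed to between 3.00 and 9.33 FPKM at 3 h, 15.6 and 52.6 at 6 h, and 11.8 and 82.8 at 12 h. The 3 of 7 matched neural markers summed to at most 0.037 FPKM at 6 h, with ELAVL3 at 0, and to between 0.046 and 4.86 in control. At 1 h they summed to 6.43, 120 and 0.367 FPKM in libraries A, B and C. They reached 31.2 FPKM in 3 h library C and 350 FPKM in 12 h library B. The 4 of 7 matched erythroid markers summed to between 869 and 1612 FPKM in control and 1421 and 2014 at 1 h. They spanned 390 to 1869 FPKM at 3 h, 1031 to 2758 at 6 h and 120 to 2603 at 12 h. The range at each time overlapped control. Of these markers hbbe3 was at 0 in every library, and alas2 in all control, 3 h and 12 h libraries, so few genes carry the sums. The part of these marker differences in the results was not tested either. In such bulk samples fewer cells of a type and less RNA per cell cannot be told apart.

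PRELID3B was the member that was high early. Its level was 42.3, 89.5 and 74.6 FPKM in control libraries A, B and C, and 303, 664 and 231 FPKM at 1 h. It stood at 618, 594 and 691 FPKM at 3 h, then at 56.9, 65.6 and 78.7 FPKM at 6 h and at 41.9, 46.5 and 42.7 FPKM at 12 h. Every 1 h and 3 h library was above every library of the other groups, the 6 h libraries lay inside the control range, and the 1 h and 3 h ranges overlapped. The mean FPKM was 5.80 times the control mean at 1 h and 9.22 times at 3 h. On the log2(FPKM + 1) scale, the difference from control was 2.44 ± 0.38 (SE, n = 3 libraries a group) at 1 h and 3.25 ± 0.38 at 3 h. From 3 h to 6 h it was lower by 3.23 ± 0.38, and at 6 h it differed from control by 0.018 ± 0.38. Of all 13051 tested genes, 11, or 0.0843%, had all 6 early libraries more than 2 times above the highest other library. PRELID3B was among them with FOS, FOSB, FOSL2, BHLHE40, CYP1A1, PCK1, SLC25A25, batf2, tefb and a clone-named gene. PRELID3B was picked as high at these times, so its place there follows in part from that choice. The count uses the values it was picked by, so it is a description and no support for the gene standing apart.

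**Figure D1:**
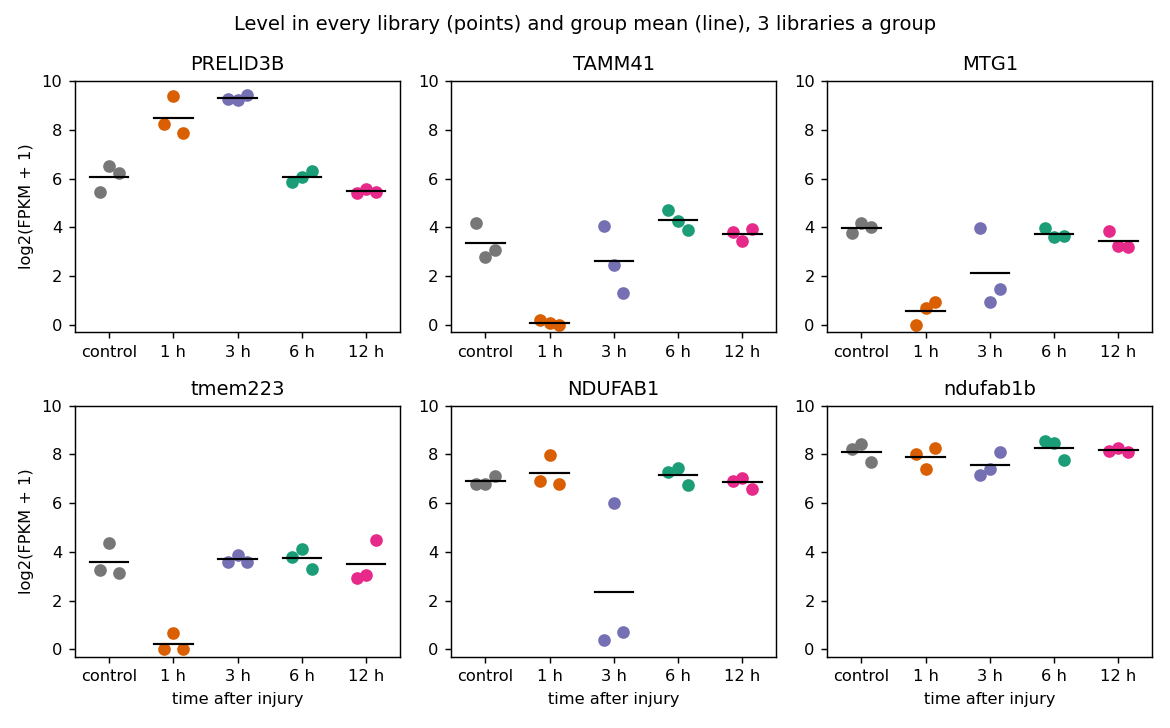
Level of each gene in every library as log2(FPKM + 1) on the vertical axis, by group on the horizontal axis; points are libraries in the order A, B, C and the line is the mean of 3. PRELID3B is high at 1 and 3 h, TAMM41, MTG1 and tmem223 are near 0 at 1 h, NDUFAB1 is near 0 in 2 of the 3 libraries at 3 h, and ndufab1b stays between 143 and 375 FPKM in every library.

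The partner of this carrier and its relatives did not pass the test at any time. The partner triap1 was at 6.43, 7.74 and 14.8 FPKM in control, 1.53, 3.81 and 8.10 FPKM at 1 h and 7.43, 9.11 and 0.377 FPKM at 3 h. Its groups overlapped, and its log2 differences from control were -1.07 ± 0.72 at 1 h (limma, adjusted p = 0.696) and -1.04 ± 0.72 at 3 h (limma, adjusted p = 0.567). PRELID1, the related carrier of phosphatidic acid, was at 6.85, 17.3 and 23.8 FPKM in control and at 37.0, 57.5 and 43.0 FPKM at 1 h. All 3 libraries at 1 h, 3 h (29.0 to 49.8 FPKM) and 6 h (31.3 to 45.5 FPKM) were above all control libraries, by 1.59 ± 0.48 at 1 h (limma, adjusted p = 0.261), 1.39 ± 0.48 at 3 h (limma, adjusted p = 0.181) and 1.33 ± 0.48 at 6 h (limma, adjusted p = 0.813). These missed the threshold of an adjusted p under 0.05. The copy prelid1b was at 0 in all control and 6 h libraries and at 13.3, 0 and 4.99 FPKM at 3 h. It did not pass at 3 h (2.14 ± 0.98, limma, adjusted p = 0.335). PRELID3A, the closest relative of PRELID3B, was at 0 in all control and 1 h libraries and at no more than 3.07 FPKM in any other, so PRELID3B accounted for nearly all PRELID3 transcript in this tissue.

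TAMM41 was nearly missing at 1 h. Its level was 17.0, 5.94 and 7.50 FPKM in control and 0.141, 0.063 and 0 FPKM at 1 h, where the 3 libraries held 2, 1 and 0 reads against 511 reads in the control libraries together. By 3 h it was at 15.5, 4.52 and 1.45 FPKM, at 6 h at 25.4, 17.9 and 13.7 FPKM and at 12 h at 13.0, 9.80 and 14.0 FPKM. No 1 h library reached any library of another group, the 3 h libraries were spread from within the control range to below it, and the 6 h and 12 h ranges overlapped control. The control libraries held 152 times the library-scaled reads of the 1 h libraries, with an exact 95% interval of 51.7 to 739 that covers counting error only. The log2 difference from control was -3.26 ± 0.64 at 1 h, and -5.87 with a pseudocount of 0.1, since a pseudocount of 1 limits how far a gene this low can move. It was -0.75 ± 0.64 at 3 h, 0.93 ± 0.64 at 6 h and 0.37 ± 0.64 at 12 h, and 6 h was above 3 h by 1.68 ± 0.64.

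None of the other enzymes of the cardiolipin route passed at 1 h. PGS1, which takes the next step after TAMM41, was at 0, 4.94 and 0.113 FPKM in control and 0, 0.796 and 6.39 FPKM at 1 h, a spread within groups larger than the difference between them (0.33 ± 1.02, limma, adjusted p = 0.95). PTPMT1, the phosphatase after it, was at 17.4, 11.0 and 5.45 FPKM in control, 19.2, 13.0 and 44.0 FPKM at 1 h and 55.1, 102 and 8.74 FPKM at 3 h. Its groups overlapped and it did not pass at 3 h (1.77 ± 0.85, limma, adjusted p = 0.366). CRLS1, which makes cardiolipin itself, had control levels of 31.7 to 44.3 FPKM and 1 h levels of 33.2 to 73.2 FPKM. CDS1, a CDP-diacylglycerol synthase of the endoplasmic reticulum, was at 0.694 to 1.91 FPKM in control and at no more than 0.081 FPKM at 1 h, a gap between groups that did not pass (-1.04 ± 0.51, limma, adjusted p = 0.543). CDS2 was at 1.65 to 6.77 FPKM in control and 1.33 to 4.97 FPKM at 1 h. Across the list of phospholipid transfer and cardiolipin genes, without the chosen ones, 9 of 16 were higher and 6 lower at 1 h. Their median log2 difference was 0.18 beside -0.12 over all genes, of which 55.9% were lower.

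MTG1 was likewise low at 1 h and also low in 2 of the 3 libraries at 3 h. Its level was 12.5, 17.2 and 15.2 FPKM in control, 0, 0.610 and 0.937 FPKM at 1 h (0, 12 and 17 reads) and 14.6, 0.913 and 1.76 FPKM at 3 h. It was at 14.5, 11.0 and 11.7 FPKM at 6 h and at 13.5, 8.42 and 8.10 FPKM at 12 h. Every 1 h library was under every control library, while at 3 h library A lay in the control range and libraries B and C far below it. The log2 difference from control was -3.44 ± 0.66 at 1 h (-5.15 with a pseudocount of 0.1) and -1.87 ± 0.66 at 3 h, which becomes -2.78 without 3 h library A. At 6 h MTG1 was 1.61 (log2) above its 3 h level, or 2.53 without that library. Library-scaled reads in control were 28.6 times those at 1 h, with an exact 95% counting interval of 19.7 to 42.9. In the RefSeq annotation of another build, mtg1 overlaps sprn, a prion-like gene; sprn was above 0 in 5 libraries, with at most 9.59 FPKM, and whether counting used strand is not given in the sources used here.

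Among other ribosome GTPases, MTG2 was at 9.63, 10.6 and 14.1 FPKM in control, 8.32, 4.96 and 9.80 FPKM at 1 h and 0, 7.17 and 2.43 FPKM at 3 h. All its 3 h libraries were below all control libraries, by 2.02 ± 0.71 on the log2 scale, which did not pass (limma, adjusted p = 0.192). ERAL1, a chaperone of the small subunit's RNA, had its highest levels at 3 h. It was at 1.01, 0.874 and 0 FPKM in control, 0.182, 0 and 0 FPKM at 1 h and 3.09, 4.23 and 7.36 FPKM at 3 h. Its 3 h libraries lay above every other library in the study, but the difference missed the threshold against control (1.86 ± 0.57, limma, adjusted p = 0.132) and against 1 h (2.41 ± 0.57, limma, adjusted p = 0.089). NOA1 had at most 2.61 FPKM in any library.

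The third gene low at 1 h, tmem223, overlapped its control level at 3 h. It was at 8.57, 19.4 and 7.83 FPKM in control and at 0, 0.576 and 0 FPKM at 1 h, with 0, 8 and 0 reads. At 3 h it was at 11.1, 13.8 and 11.2 FPKM, at 6 h at 13.0, 16.4 and 8.88 FPKM and at 12 h at 6.54, 7.37 and 21.3 FPKM. The 1 h libraries stood alone: the next lowest library of the study held 6.54 FPKM, and all later groups overlapped control. The log2 difference was -3.36 ± 0.55 at 1 h (-5.87 with a pseudocount of 0.1) and 0.11 ± 0.55 at 3 h, and 3 h was above 1 h by 3.48 ± 0.55. Library-scaled reads in control were 59.4 times those at 1 h, with an exact 95% counting interval of 30.0 to 138. In the same RefSeq annotation, tmem223 overlaps a long non-coding RNA gene that was not matched to the expression matrix. As for MTG1, whether counting used strand is not given in the sources used here. TAMM41 and tmem223 were among 8 genes of 13051 (0.0613%) with all 3 libraries under 1 FPKM at 1 h and the other 12 libraries at 1 FPKM or more; the others were ERLEC1, GOLPH3, LCP1, MAEA, OSBPL9 and SGCE. The same pattern was met by 2 genes for control, 13 for 3 h, 4 for 6 h and 0 for 12 h. LCP1 is also among the neutrophil and macrophage markers summed above. TAMM41 and tmem223 were picked as low early, so their place in the 1 h set follows in part from that choice. That count too is a description and no support for these genes standing apart.

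Of the other early factors of complex IV assembly, cox14 and COA3 were within or above their control ranges at 1 h. cox14, which binds newly made COX1, was at 176, 190 and 120 FPKM in control and 233, 144 and 225 FPKM at 1 h (0.30 ± 0.33, limma, adjusted p = 0.834). COA3, which acts with it, was at 68.3, 124 and 65.4 FPKM in control and 148, 114 and 152 FPKM at 1 h, and at 3 h at 62.5, 94.2 and 33.5 FPKM. Its 3 h libraries were all below its 1 h libraries, by 1.22 ± 0.38 on the log2 scale (limma, adjusted p = 0.210). The copy coa3b overlapped, with 6.56, 3.71 and 0.122 FPKM at 1 h and 1.71, 12.5 and 3.89 FPKM at 3 h. Its difference was 0.72 ± 0.83 (limma, adjusted p = 0.819). SCO1, a copper chaperone for complex IV, was at 3.34, 2.60 and 5.62 FPKM in control and 0 in all 3 libraries at 1 h, and had the smallest adjusted p of the pathway genes in that comparison without passing (-2.23 ± 0.64, limma, adjusted p = 0.234).

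NDUFAB1 differed from the others in time: it was within or above its control range at 1 h and nearly missing in 2 libraries at 3 h. Its level was 110, 110 and 137 FPKM in control, 118, 249 and 111 FPKM at 1 h and 0.295, 63.1 and 0.664 FPKM at 3 h, where libraries A, B and C held 3, 623 and 7 reads. It was at 153, 173 and 106 FPKM at 6 h and at 121, 131 and 94.9 FPKM at 12 h. All 3 h libraries were under every other library, though library B was far closer to them than to A and C. The log2 difference from control was 0.32 ± 0.96 at 1 h and -4.53 ± 0.96 at 3 h, and 6 h was above 3 h by 4.78 ± 0.96. Without 3 h library B these last 2 values become -6.35 and 6.60. Of 590 genes at 50 FPKM or more in all control libraries, 6 had a 3 h library under 1 FPKM, and of those NDUFAB1 alone had 2. NDUFAB1 was picked as low at 3 h, so its place there follows in part from that choice. The count uses the same values and is a description, no support for the gene standing apart. A spread of more than 10 times between the 3 libraries was common among genes averaging 5 FPKM or more, at 24.6% of them at 1 h and 19.4% at 3 h beside 9.65% in control.

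The other copy, ndufab1b, was abundant in every library. It was at 301, 339 and 203 FPKM in control, 258, 170 and 302 FPKM at 1 h and 143, 166 and 276 FPKM at 3 h, followed by 375, 356 and 215 FPKM at 6 h and 279, 308 and 276 FPKM at 12 h. Every group overlapped control. Its log2 difference at 3 h was -0.55 ± 0.33, with a 95% interval of -1.25 to 0.15 (limma, adjusted p = 0.494), and 6 h was above 3 h by 0.71 ± 0.33 (limma, adjusted p = 0.337). It did not pass in any of the 7 comparisons, where its adjusted p from limma ranged from 0.337 to 1. NDUFAB1 made up 24.4% to 40.2% of the FPKM of the 2 copies in control, 26.8% to 59.4% at 1 h, 0.206%, 27.5% and 0.240% in libraries A, B and C at 3 h, 28.9% to 33.0% at 6 h and 25.6% to 30.2% at 12 h. The copies together averaged 400 ± 55.1 FPKM in control (SD, n = 3) and 216 ± 67.9 FPKM at 3 h. How reads shared by the copies were assigned is not given in the sources used here. NDUFAB1 was scaled by 787 bases and ndufab1b by 1537, so the sum of their FPKM can also depend on it.

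**Figure D2:**
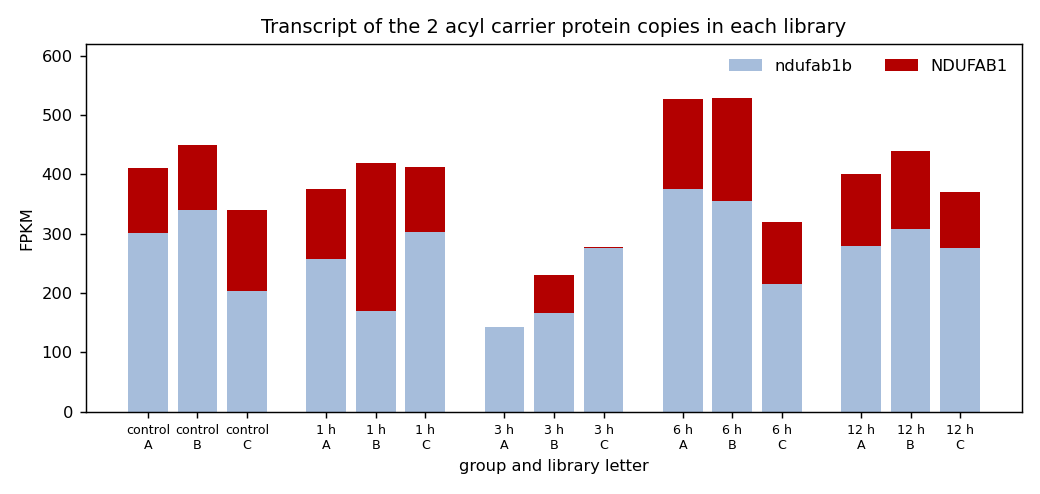
FPKM of the acyl carrier protein copies in each library, stacked, with ndufab1b below and NDUFAB1 above. At 3 h the bars of libraries A and C are almost entirely ndufab1b, and the total averages 216 FPKM beside 400 FPKM in control.

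The lipid and iron-sulfur partners of the acyl carrier protein were mixed at 3 h. OXSM, the synthase that extends the chain on it, was at 6.23, 0.883 and 1.80 FPKM in control and 5.82, 2.66 and 2.29 FPKM at 3 h; MECR, MCAT and LIAS, the reductase, the malonyl transferase and the lipoate synthase, were under 5 FPKM in all control and 3 h libraries. OXSM was then at 0.246, 0.464 and 0 FPKM at 6 h, below all 3 h libraries, but did not pass (-1.83 ± 0.68, limma, adjusted p = 0.210). LYR protein lyrm4, which binds the acyl carrier protein and the cysteine desulfurase, was at 119, 96.8 and 78.0 FPKM in control, 91.3, 39.4 and 65.9 FPKM at 3 h and 115, 185 and 153 FPKM at 6 h. Its 6 h libraries lay above its 3 h libraries, by 1.25 ± 0.39 (limma, adjusted p = 0.135). The other entry, LYRM4, overlapped, with 13.5, 0 and 34.1 FPKM at 3 h and 12.6, 18.0 and 9.74 FPKM at 6 h. Its difference was 0.81 ± 0.92 (limma, adjusted p = 0.744). The desulfurase NFS1 was at 5.52 to 8.17 FPKM in control and 5.99 to 10.8 FPKM at 3 h. The scaffold ISCU was at 105 to 122 FPKM in control and 87.4 to 99.8 FPKM at 3 h, a difference of -0.24 ± 0.42 on the log2 scale (limma, adjusted p = 0.856). SURF1, a complex IV assembly factor, was lowest in the same 3 h libraries as NDUFAB1, with 26.1, 22.0 and 30.3 FPKM in control, 0.137, 17.0 and 4.83 FPKM at 3 h and 46.6, 50.3 and 22.9 FPKM at 6 h. It missed the threshold against control (-2.45 ± 0.76, limma, adjusted p = 0.134) and from 3 to 6 h (2.98 ± 0.76, limma, adjusted p = 0.067). Of 24 tested partners of the 6 genes, 0 passed in any comparison by limma on log2(FPKM + 1) or by voom on the recovered reads; at 3 h 3 higher and 2 lower partners had an unadjusted p under 0.05, and from 3 to 6 h likewise 3 and 2, or 20.8% of the partners each time beside 13.9% and 14.6% of all genes.

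Set side by side, the genes fell into different orders in time. Shares below are of genes that passed the test, a stricter mark than libraries that do not overlap. The share of all genes without overlap was not counted, for these genes or for the partners above. The shares that passed therefore do not tell how rare such non-overlap is. By limma, an unadjusted p under 0.05 was met by 9.33% of all genes at 1 h and 13.9% at 3 h against control. It was met by 11.2% from 1 to 3 h and by 14.6% from 3 to 6 h. At 1 h, PRELID3B was above control in 3 of 3 libraries, TAMM41, MTG1 and tmem223 were below it in 3 of 3, and NDUFAB1 and ndufab1b overlapped it; these were the values by which the genes were picked, and 0.222% of all 13051 genes passed the test in that comparison. At 3 h PRELID3B was above and NDUFAB1 below control in 3 of 3 libraries, in a comparison in which 1.39% of all genes passed. From 1 h to 3 h, where 0.245% of all genes passed, tmem223 and TAMM41 were higher in 3 of 3 libraries and NDUFAB1 was lower in 3 of 3, while PRELID3B, MTG1 and ndufab1b overlapped. From 3 h to 6 h, where 1.11% passed, all 6 h libraries of PRELID3B were lower and all of NDUFAB1 higher, while TAMM41 and MTG1 overlapped, with 3 h library A inside the 6 h range for TAMM41 and just above it for MTG1. At 6 h and at 12 h 0% of genes passed against control by limma, 721 and 992 genes had an unadjusted p under 0.05, and voom called 1 and 8; every member overlapped its control range at both times.

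**Figure D3:**
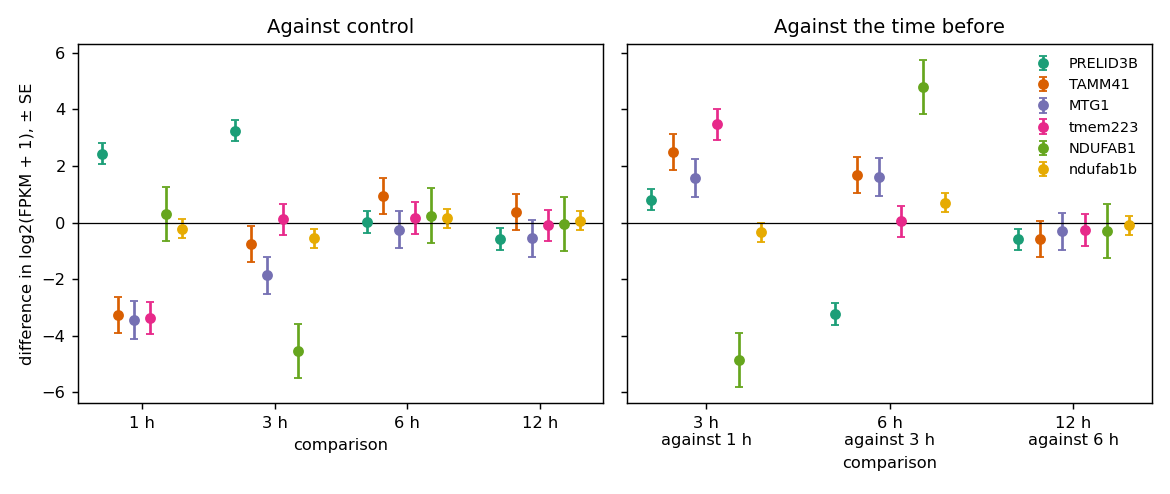
Difference in log2(FPKM + 1) with its standard error for the 6 genes, against control on the left and against the time before on the right, with 3 libraries a group. PRELID3B lies above 2 at 1 and 3 h, TAMM41, MTG1 and tmem223 lie below -3 at 1 h, and NDUFAB1 lies below -4 at 3 h; values for 6 and 12 h against control lie within 1 of 0.

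The step from 6 h to 12 h had little part in choosing the genes and was tested. PRELID3B was lower at 12 h in 3 of 3 libraries, by 0.59 ± 0.38 on the log2 scale, with a 95% interval of -1.39 to 0.20 (limma, adjusted p = 0.598). The other members overlapped, with differences of -0.56 ± 0.64 for TAMM41, -0.31 ± 0.66 for MTG1, -0.26 ± 0.55 for tmem223, -0.30 ± 0.96 for NDUFAB1 and -0.091 ± 0.33 for ndufab1b. None of the 6 passed by limma or by voom, in a comparison where 0.0996% of all genes passed by limma. None had an unadjusted p under 0.05 by limma, which 11.1% of all genes had. With 6 genes, this does not set them apart. The median of all genes was itself 0.33 higher at 12 h than at 6 h, and 0.32 higher than in control. With median ratio scaling these shifts were 0.14 and 0.098. All 6 genes lay below the median gene in this step. This was not particular to them. Of the 233 pathway genes described below, 126 were lower at 12 h than at 6 h, or 54.1% beside 32.9% of all genes. Their median was -0.033.

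Pathway genes around the 6 were taken from 9 lists, which held 233 tested genes besides the 6. Of all genes, 55.9% were lower than control at 1 h and 55.7% at 3 h, and 46.2% were lower at 6 h than at 3 h. By limma, 0 of 233 passed in each of the 7 comparisons, and by voom 1 passed at 3 h against control (PHB2) and 1 from 3 to 6 h (LIPT1). At 3 h 179 of 233 were lower than control, with a median log2 difference of -0.33 beside -0.13 over all genes, and 6 higher and 25 lower genes had an unadjusted p under 0.05, or 13.3% beside 13.9% of all genes. From 3 h to 6 h, 173 were higher, with a median of 0.49 beside 0.068, and 37 higher and 6 lower genes had an unadjusted p under 0.05, or 18.5% beside 14.6% of all genes. At 1 h 140 were lower and 92 higher, with a median of -0.16 beside -0.12, an order that flipped with a pseudocount of 0.1 and with voom. At 12 h 105 were lower than control, or 45.1% beside 31.6% of all genes, with a median of 0.051 beside 0.32. The median of all genes at 12 h depended on scaling, as given above.

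Mitochondrial ribosomal proteins, which MTG1 helps assemble, were the longest list. At 3 h 59 of 68 were lower than control, with a median of -0.58, and from 3 h to 6 h 59 of 68 were higher, with a median of 0.77; 54 did both, in comparisons that share the 3 h libraries. Their mean log2 level relative to control was -1.04, -0.73 and -0.40 in 3 h libraries A, B and C beside -0.26 to 0.25 in the control libraries. The smallest adjusted p at 3 h was that of mrpl18, a large subunit protein, at 8.25, 6.95 and 7.92 FPKM in control and 1.11, 1.72 and 0.893 FPKM at 3 h (-1.97 ± 0.53, limma, adjusted p = 0.082). mrpl36 was at 8.54, 23.6 and 16.5 FPKM at 3 h and 47.6, 50.1 and 55.0 FPKM at 6 h (1.69 ± 0.43, limma, adjusted p = 0.068), and MRPS34, of the small subunit, was 1.31 ± 0.34 higher (limma, adjusted p = 0.072). None passed.

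Of all genes, 55.9% were lower than control at 1 h (median -0.12) and 55.7% at 3 h (median -0.13). Of the ribosome assembly list, 16 of 20 were lower at 1 h (median -0.44) and 15 of 20 at 3 h (median -0.76). The mean of that list was below every control library in all 3 libraries at both times. The list stayed lower later, for 14 of 20 at 6 h (median -0.34 beside -0.016 over all genes). At 12 h 12 of 20 were lower (median -0.19 beside 0.32). Complex I assembly factors were lower at 1 h for 11 of 15 (median -0.77), with ECSIT, a factor of early complex I assembly, at 9.91, 28.7 and 13.4 FPKM in control and 5.64, 1.01 and 2.28 FPKM at 1 h (-2.24 ± 0.66, limma, adjusted p = 0.246). NDUFAF5 was at 7.40, 29.9 and 17.5 FPKM in control and 0.131, 4.39 and 7.22 FPKM at 1 h (-2.19 ± 0.66, limma, adjusted p = 0.262). At 3 h 13 of 15 complex I assembly factors were lower than control (median -0.49). The mean of this list was -1.02, -0.47 and -0.84 in 1 h libraries A, B and C and -0.50, -0.31 and -0.35 at 3 h. The control libraries ran from -0.45 to 0.35, so 1 h library B lay just below them. Complex I subunits, the list NDUFAB1 belongs to, were lower at 3 h for 27 of 33, but with a median of only -0.22, and library C was above control (0.31). Their median relative to all genes changed sign with a pseudocount of 0.1, from -0.094 to 0.025. Complex IV assembly factors were lower at 3 h for 20 of 25 with a median of -0.20, iron-sulfur genes for 18 of 24 with a median of -0.41, and inner membrane organisation genes for 15 of 25 with a median of -0.16 and all 3 libraries within the control range; relative to all genes, the complex IV and inner membrane medians also changed sign with a pseudocount of 0.1. The 9 genes of mitochondrial fatty acid synthesis and lipoylation divided into 3 higher and 6 lower at 1 h, with a median of -0.84, and 4 and 5 at 3 h. Their mean relative to control was -1.01, 0.31 and -0.64 in 1 h libraries A, B and C, so that library B lay above all control libraries, of which the highest was at 0.14. Between 11443 and 12788 gene IDs were above 0 in the 1 h libraries beside 13988 to 14288 in control, and the part of this in the lower medians at 1 h was not tested.

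**Figure D4:**
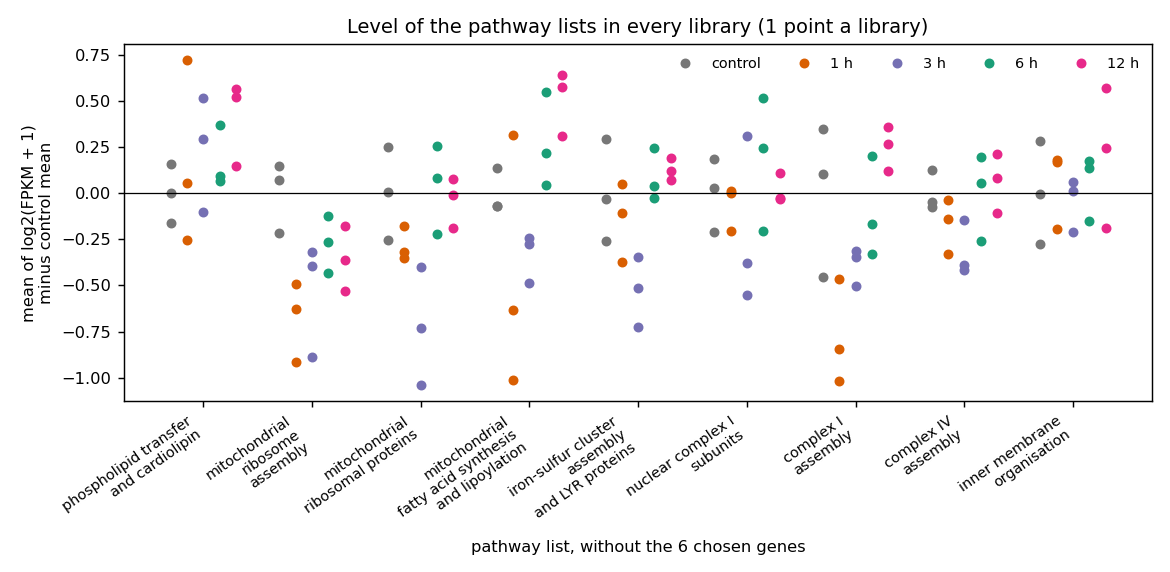
Mean of log2(FPKM + 1) over the tested genes of each pathway list, without the 6 chosen genes, relative to the mean of the control libraries; each point is 1 library. Ribosomal proteins lie between -1.04 and -0.40 at 3 h, beside -0.26 to 0.25 in control. Complex I assembly factors lie between -1.02 and -0.47 at 1 h, beside -0.45 to 0.35 in control.

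Genes whose level most resembled each member over the 15 libraries were found by Pearson correlation of log2(FPKM + 1), given as a description since the libraries share groups. For PRELID3B they were FOS and FOSL1, subunits of the AP-1 factor, COQ10B, a coenzyme Q binding protein of mitochondria, LIPG, endothelial lipase, and BTG2, an immediate early antiproliferative gene, with r from 0.92 to 0.94 (n = 15). COQ10B was at 63.3, 55.7 and 71.2 FPKM in control, 192, 433 and 138 FPKM at 1 h and 241, 191 and 241 FPKM at 3 h, and back at 39.2 to 68.0 FPKM at 6 h. FOS was at no more than 3.68 FPKM in control and at 19.8, 272 and 18.0 FPKM at 1 h, and library B was the highest at 1 h for FOS, COQ10B and PRELID3B alike.

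For TAMM41 the nearest were ST3GAL5, which makes the ganglioside GM3 (r = 0.93), then MTG1 (r = 0.88), USF2, rnf144b and COA8. ST3GAL5 was at 0 in all 1 h libraries and at 4.78, 1.43 and 1.60 FPKM in control. MTG1 had rnf144b (r = 0.90), SSR4, YEATS4, TAMM41 and LPAR1. Without the 1 h libraries, the correlation of TAMM41 with MTG1 was 0.70 (n = 12), while that of tmem223 with TAMM41 went from 0.81 to -0.030 and that with MTG1 from 0.71 to -0.13. tmem223 itself was nearest to MAEA, a ubiquitin ligase subunit (r = 0.89), DRAM2, ppdpfb, rad21a and CLIC4, and its correlation with MAEA was 0.38 without the 1 h libraries.

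NDUFAB1 was most like RPA2 (r = 0.90), SURF1, BVES, RPA1 and HOMER1. RPA2, a subunit of replication protein A, was at 11.9, 18.4 and 5.49 FPKM in control, 0, 6.67 and 0.046 FPKM at 3 h and 20.2, 26.8 and 25.4 FPKM at 6 h, with library B the least low at 3 h, as for NDUFAB1. That likeness rested on the 3 h libraries: r for RPA2 was 0.18 without them. ndufab1b was most like ndufa5 (r = 0.95), atp5mc1, ndufc1, atp5mea and NDUFB11, which encode subunits of complex I and ATP synthase, and r for ndufa5 was 0.89 without the 3 h libraries. The correlation of PRELID3B with the other 5 members ran from -0.70 with MTG1 to -0.37 with tmem223, which was 0.13 without the 1 h libraries. The named genes were picked as high or low at 1 and 3 h, so the signs of correlations between them follow in part from that choice.

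**Figure D5:**
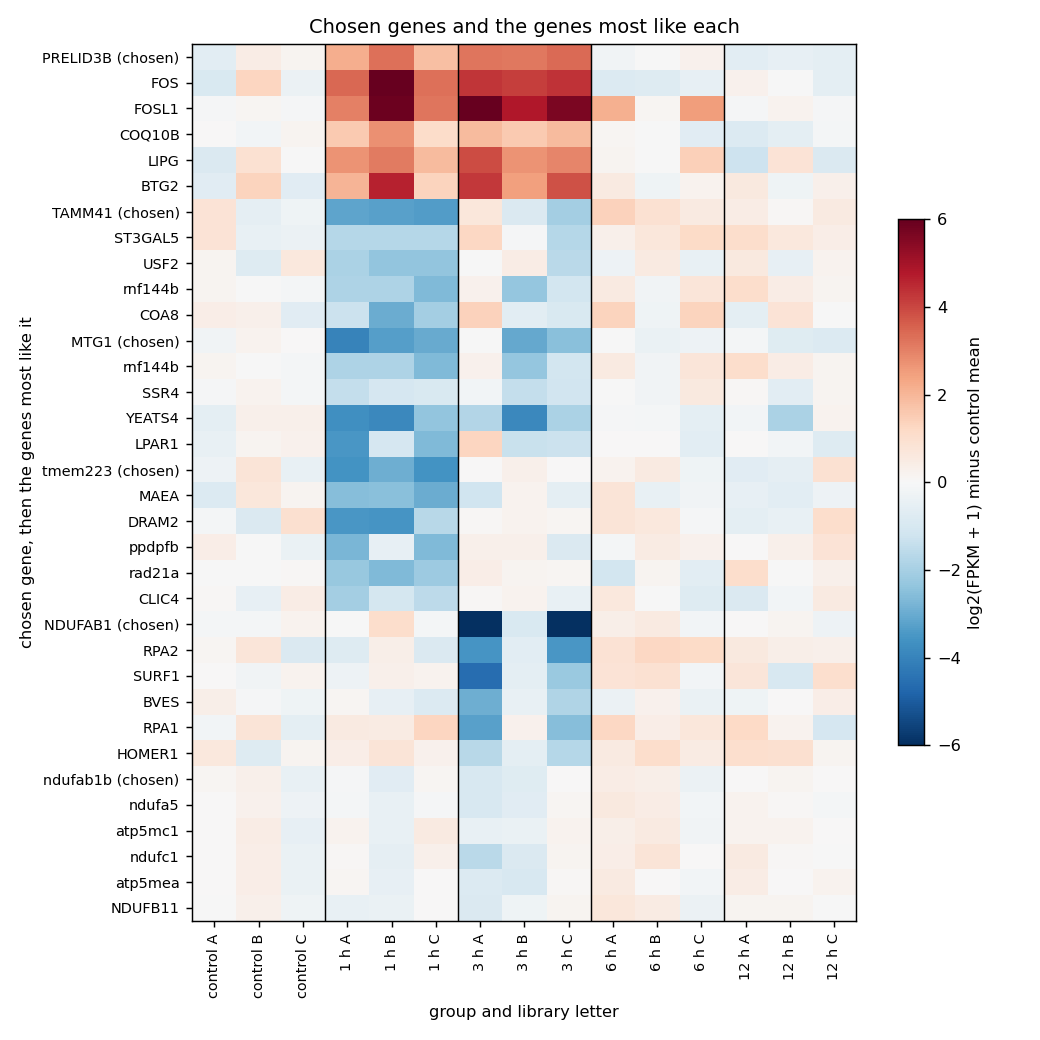
Log2(FPKM + 1) minus the control mean, by library, for each chosen gene and those of the 5 genes most like it that are not themselves chosen. MTG1 is thus not repeated in the TAMM41 block, nor TAMM41 in the MTG1 block. Red is above and blue below the control mean, and colours saturate at both ends of the scale. The PRELID3B block is red in all 6 libraries of 1 and 3 h, the TAMM41, MTG1 and tmem223 blocks are bluest at 1 h, and the NDUFAB1 block is bluest in 3 h libraries A and C.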

How the data were processed

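RNA sequencing of 15 libraries was analysed, 3 in each of 5 groups taken from the titles. Values are FPKM as the authors deposited them; per the submitters' processing notes, reads were aligned with HISAT to GRCz11 and FPKM came from StringTie and edgeR. One 1 h column, called library B here, could be tied to its group but not to a title, and 3 columns that match no sample were not used. FPKM was summed over gene IDs with the same symbol (29201 of 32520 IDs had one) to 28103 genes, and the 13051 genes that reached an FPKM of 1 in 3 or more libraries were tested. Differences are of log2(FPKM + 1), with a pseudocount of 1, from a two-sided moderated test in limma (version 3.58.1, R 4.3.3) with a mean-variance trend and all 15 libraries in 1 linear model. P-values were adjusted by Benjamini-Hochberg over all kept genes in each of 7 comparisons, with a threshold of 0.05; the fit was tested on simulated data. A fold change on this scale understates the change of low genes.

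Reads were recovered from the FPKM as whole multiples, within 0.001 reads, for all 20690 IDs above 0 in at least 2 libraries; totals ran from 12486844 to 15651535. They gave the counting intervals (exact conditional binomial, 95%, counting error only) and an alternative fit with voom. The other alternatives were leaving out each library, a replicate block, fitting only the 2 groups compared, 1 value per gene ID, quantile normalization, scaling by median ratios, testing all genes, and a pseudocount of 0.1.

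Named genes were the chosen genes, a set of partners, pathway genes with the smallest p per comparison and the 5 non-clone genes with the highest Pearson r to each chosen gene. Since no pathway gene passed the threshold, those with the smallest p are named instead and are said to have missed it. The members and lists were chosen with earlier results of these data known. Gene order and overlaps come from RefSeq coordinates of another build (GRCz12tu), which are not printed. Neighbours were matched to the expression matrix by name. Gene and protein sequences were not used here.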

Additional observations from a re-analysis of the deposited data

Results flagged for a closer look

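3 genes were singled out because all 3 libraries of some times lay on one side of the control mean and all 3 of another time on the other side; the difference between times was not tested in these cases. These genes were picked as high or low early, so their patterns follow in part from that choice. The share of all genes with such a pattern was not counted. For PRELID3B, the log2 difference from the control mean was 2.44 at 1 h and 3.25 at 3 h, and -0.58 at 12 h. For TAMM41 it was -3.26 at 1 h, and 0.93 at 6 h and 0.37 at 12 h, the last of which was -0.036 with quantile normalization. For tmem223 it was -3.36 at 1 h and 0.11 at 3 h, and leaving out 1 library gave -0.11 to 0.50 at 3 h, so its direction there is not settled.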

How the results depend on the processing

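Over the alternatives, PRELID3B stayed between 1.99 and 2.75 (log2) above control at 1 h and between 2.94 and 3.47 at 3 h, and NDUFAB1 between -6.35 and -3.53 at 3 h. At 1 h, voom moved TAMM41 to -6.79, MTG1 to -5.84 and tmem223 to -6.83. MTG1 at 3 h against 1 h was 0.65 without 3 h replicate A, and NDUFAB1 at 3 h against 1 h was -6.67 without 3 h replicate B. No pathway gene passed from 3 to 6 h, but 1 did with no filter on low values (MRPS34), 1 with the replicate block (hsd17b8) and 1 with voom (LIPT1), and leaving out 1 library gave 0 to 4, with 1 without 1 h replicate B, 2 without 3 h replicate B and 4 without 3 h replicate C. At 3 h against control voom gave 1 (PHB2) and leaving out 1 library gave 0 to 1, with 1 each without 3 h replicates B and C; the cause was not tested. The other 5 comparisons kept 0 under these alternatives, and 0 of the chosen genes passed at 12 h against 6 h in any.

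Near 0, signs changed. ndufab1b at 12 h against control became -0.29 with median ratio scaling, -0.12 with quantile normalization and -0.15 without control replicate C; at 1 h it became 0.079 with the replicate block. Leaving out 1 library gave ndufab1b a range of -0.43 to 0.023 at 1 h (positive without 1 h replicate B) and -0.062 to 0.41 at 6 h (negative without control replicate C). At 12 h against 6 h the range was -0.35 to 0.055 for ndufab1b (positive without 6 h replicate A or B) and -0.76 to 0.024 for tmem223 (positive without 12 h replicate A). Of the differences given without a test, tmem223 at 3 h against control ranged from -0.11 to 0.50 with 1 library left out (negative without control replicate A or C) and TAMM41 at 12 h became -0.036 with quantile normalization; PRELID3B at 6 h, NDUFAB1 at 1 and 12 h, and tmem223 at 6 and 12 h and from 3 to 6 h also changed sign under at least 1 alternative. Library letters showed no sign of pairing in expression. Deviations of same-letter libraries correlated between -0.16 and 0.13 (26 pairs) and of other libraries between -0.16 and 0.21 (64 pairs). The labels tie no library to an animal, so whether letters pair the samples is not known. The replicate block is therefore a check only. Ranked by Spearman's rho, 1 of the 5 genes nearest PRELID3B, 2 of MTG1, 3 of ndufab1b (4 with ndufc1, which ties for the fifth) and 0 of TAMM41, NDUFAB1 and tmem223 were shared with the ranking by Pearson's r.

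Depth limits the low genes: 3 reads of TAMM41 correspond to between 0.170 and 0.213 FPKM, so its levels at 1 h rest on single reads.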

Other observations

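The following 3 mitochondrial genes are in none of the pathway lists and were chosen after their values were seen. Their adjusted p-values are therefore a description only. At 3 h against control, 181 of all 13051 genes (1.39%) passed. PDK2, a kinase that inhibits the pyruvate dehydrogenase complex, was at 23.7, 34.3 and 76.8 FPKM in control and 66.2, 744 and 81.7 FPKM at 1 h. It was at 536, 459 and 786 FPKM at 3 h and 25.7, 24.5 and 17.2 FPKM at 6 h. At 3 h it was above control by 3.83 ± 0.84 on the log2 scale (limma, adjusted p = 0.030), and 1 h library B lay within the 3 h range. ucp3, an uncoupling carrier of the inner membrane, was at 6.86, 31.3 and 43.9 FPKM in control and 355, 215 and 451 FPKM at 3 h, and rose by 3.86 ± 0.70 (limma, adjusted p = 0.012). SLC25A25, a calcium-regulated ATP-Mg carrier, was at 0.476, 4.01 and 2.80 FPKM in control and 51.8, 12.6 and 10.5 FPKM at 3 h, and missed the threshold (2.73 ± 0.75, limma, adjusted p = 0.085).

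In the RefSeq order of genes, pck1, which encodes a gluconeogenic enzyme, lies 2 genes from prelid3b, with pmepa1 between them and aurka on the other side. PCK1 was at 0 in all control, 6 h and 12 h libraries, at 13.6, 5.90 and 0.868 FPKM at 1 h and at 43.0, 4.85 and 1.74 FPKM at 3 h, and did not pass (3 h, 3.15 ± 0.85, limma, adjusted p = 0.082). PMEPA1 was above 0 in 6 libraries, with at most 4.96 FPKM. Next to tmem223 lies fosl1b, an AP-1 subunit gene, which was at 0 in all control, 1 h and 12 h libraries and at 5.42, 11.1 and 9.89 FPKM at 3 h. In all, fosl1b was above 0 in 6 libraries. Its difference from control at 3 h was 3.24 ± 0.56 (limma, adjusted p = 0.010). Both PCK1 and fosl1b were kept for testing only through libraries where they are high. Neighbours were not among the genes named by rule, so these adjusted p-values are a description only.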
